A study of Caenorhabditis elegans with 2 samples.

Results

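The genes described here encode 9 proteins of the step that starts anaphase: 5 subunits of the anaphase-promoting complex (mat-1, mat-2, mat-3, emb-27 and emb-30), its activators fzy-1 and fzr-1, the securin gene ify-1 and the separase gene sep-1. They were chosen by name, with earlier results of these data known, so their counts are descriptions. All 9 were found in the annotation, and they are set beside the 19973 protein-coding genes that it places on nuclear chromosomes. The measurement was chromatin immunoprecipitation followed by sequencing (ChIP-seq) of EFL-1, a transcription factor of the E2F family, in Caenorhabditis elegans. The animals were whole larvae of the first stage (L1), of mixed sex, from strain YL418, which carries the mutation unc-119(ed3) III and the integrated transgene vrIs65. Per the labels, the transgene joins the promoter of ges-1 to EFL-1 tagged with GFP and FLAG and to the efl-1 3' untranslated region, with unc-119(+) beside it. The ges-1 promoter is known for its activity in the intestine, and whole larvae were used, so the cells behind each peak are not given. The labels give the antibody as efl-1 and the target as eGFP-efl-1, without saying whether it binds the tag or EFL-1 itself. There was 1 group of 2 biological replicates, numbered 2 and 3, and no second condition, so no difference between groups was tested and the values below are descriptions.

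The anaphase-promoting complex is a ubiquitin ligase that marks proteins for destruction at the end of metaphase and in early interphase. Bound to its activator Cdc20, it destroys securin, an inhibitor of separase, and B-type cyclins. Freed separase then cleaves cohesin and the sister chromatids part. The spindle checkpoint holds the complex inactive until the chromosomes are attached. In worms, losing subunit function arrests cells at the passage from metaphase to anaphase, the defect that gave the mat genes their name. E2F factors are known as regulators of genes of the cell cycle.

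EFL-1 peaks stood at the securin and separase genes, at the Cdc20 gene fzy-1 and at 2 of the 5 subunit genes. Those of sep-1 and ify-1 were far stronger than those of the subunit genes emb-27 and mat-1, and mat-2, mat-3, emb-30 and the other activator, fzr-1, had none. A gene was counted if a peak summit, the position of highest signal, fell in its promoter window. The window reached 1000 bp ahead of and 500 bp past each annotated transcript start. The peaks counted were the 1886 that passed the authors' irreproducible discovery rate (IDR) threshold. By this rule 5 of the 9 genes had a peak, beside 11.0% of all protein-coding genes (2200 of 19973). Each of the 5 peaks also lay in the promoter window of a gene that starts on the opposite strand. When each summit was given to the nearest 5' end alone, fzy-1 and ify-1 kept their peak, which makes 2 of 9 genes beside 7.51% of all protein-coding genes. With a tighter window, 300 bp ahead and 100 bp past the start, the same 2 genes were counted (7.17% of all genes), and in the stronger 50% of IDR peaks fzy-1, ify-1 and sep-1 were (6.48% of all genes).

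The same 5 genes were counted from each replicate alone, with as many of its strongest regions as there are IDR peaks. The share of all protein-coding genes was then 10.8% for replicate 2 and 10.4% for replicate 3. They were also counted with a window of 500 bp on each side (9.28% of all genes) and with peaks that merely overlapped the window (11.4% of all genes). By chromosome, 2 of 2 members on I, 3 of 5 on II and 0 of 2 on III had an IDR summit, where the shares of all protein-coding genes were 17.5%, 11.8% and 19.5%.

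Short stretches of the peaks of fzy-1, ify-1 and emb-27 are shown as examples of matches to cell-cycle motifs. A marked match covers the summit base at emb-27 and fzy-1, while those at ify-1 lie 85 and 21 bp from the summit. Matches at sep-1 and mat-1 are not shown. Sequences are from the RefSeq genome (ce11, forward strand). The motifs marked in fzy-1 and in the second ify-1 stretch were chosen after the sequences were seen. Their matches are therefore no evidence of a shared site. The motif marked in emb-27 is common, within 100 bp of 49.8% of all IDR summits. It also lay in 50.1% of windows of 201 bp just upstream of all protein-coding genes. The capitals in emb-27 mark TTTGAA, the core motif of the element called the cell cycle homology region. In the first ify-1 stretch they mark TTTGCCGC, a form of the E2F consensus. In the other ify-1 stretch they mark TTCGAA, a variant of that core. In fzy-1 they mark an E2F-like match on the reverse strand, TTGCCGCC, and TTCGAA.
emb-27, chrII:8162480-8162509: catcatcaaattTTTGAAtaaaattgtttc
ify-1, chrII:5055256-5055285: attgttcacgtTTTGCCGCaaaaagatgga
ify-1, chrII:5055321-5055350: ctagccggcgtcTTCGAAgtgccatagagc
fzy-1, chrII:5501481-5501510: caactGGCGGCAAtTTCGAAcgtgcatgcc

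Of the 9 genes, those of separase and securin had the strongest peaks. The gene sep-1 (WBGene00004775, reverse strand, chrI:3433158-3438543) encodes separase, the protease that cuts cohesin. Its peak (chrI:3438847-3439098) lay between genes, with the summit 436 bp upstream of the sep-1 5' end. The same summit lay closer to nefr-1 on the opposite strand, 120 bp upstream of its 5' end. The signal value that the authors' caller gave, column 7 of the deposited lists, was 307 in replicate 2 and 142 in replicate 3. These were ranks 201 and 164 of the 30000 regions listed for each replicate. Over the 1823 IDR peaks found in both replicates, the median ratio of replicate 2 to replicate 3 was 2.48, so each signal was divided by its own replicate's median over the IDR peaks. On that scale sep-1 averaged 7.05 ± 0.486 times the median (SD, n = 2), and both replicates stood far above it. In the IDR set the peak ranked 192, between the promoter peaks of mppb-1 (rank 191) and eas-1 (rank 193), the genes most like it in pooled signal.

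The gene ify-1 (WBGene00002068, reverse strand, chrII:5054135-5055179) encodes securin, which binds and restrains separase until the complex destroys it. Its peak (chrII:5055250-5055482) lay between genes, with the summit 180 bp upstream of the 5' end. The signal was 322 in replicate 2 and 92.2 in replicate 3, ranks 191 and 290. Scaled to the replicate medians this was 7.03 and 4.80 times the median, 5.91 ± 1.57 on average (SD, n = 2). Replicate 2 placed ify-1 above sep-1 and replicate 3 placed it below, so the order of these 2 genes was not resolved. The replicate summits of ify-1 were 3 bp apart, and those of sep-1 13 bp apart, beside a median of 17 bp over the IDR peaks found in both replicates. The ify-1 peak is also in the window of the ribosomal protein gene rpl-22, whose summit distance was 257 bp.

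**Figure D1:**
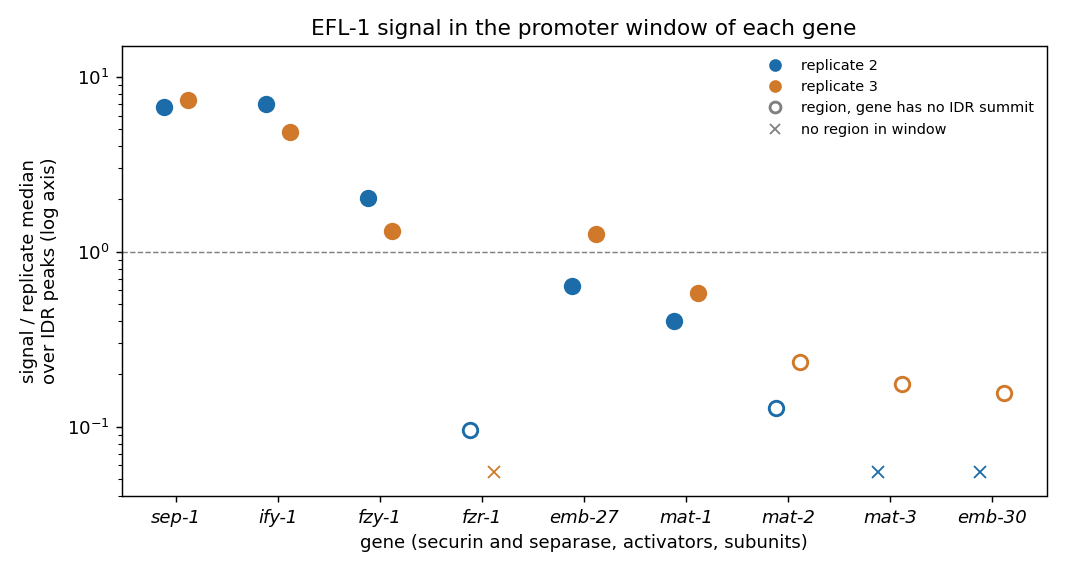
EFL-1 signal of the strongest region in each gene's promoter window, divided by the replicate's median over IDR peaks (log axis); points are the 2 replicates, filled where the gene has an IDR summit, and a cross at the bottom means that no region is listed there. Both points of sep-1 and ify-1 lie between 4.80 and 7.40 times the median, while the open points of the 4 genes without an IDR summit lie at 0.235 times or lower.

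Of the activators, fzy-1 had a peak and fzr-1 had none. The gene fzy-1 (WBGene00001511, forward strand, chrII:5500770-5503912), which encodes the Cdc20 protein of mitosis, had a peak with a signal of 92.9 in replicate 2 and 25.3 in replicate 3. Scaled, these were 2.03 and 1.31 times the median, 1.67 ± 0.506 on average (SD, n = 2), so both replicates were above the typical IDR peak and below sep-1 and ify-1. The annotation gives fzy-1 transcripts with 2 different 5' ends. The peak (chrII:5501423-5501544) lay in an intron of the longer form, with its summit 726 bp past the first 5' end and 137 bp upstream of the other. In the promoter window around the first 5' end alone the pooled list had a region of rank 23694 of 30000, so the strong peak stood at the start of the shorter form. The peak was 122 bp wide, narrower than the 284 bp that 63.8% of IDR peaks share.

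The gene fzr-1 (WBGene00001510, reverse strand, chrII:9640156-9644466) encodes the Cdh1-type activator, which keeps the complex active outside mitosis and in worms acts with the retinoblastoma-like gene lin-35 to restrain cell division. It had no IDR summit and no region of the pooled list in its promoter window. Replicate 2 listed a region with a signal of 4.35, rank 18485 of 30000, and replicate 3 listed none. The nearest IDR summit was 24702 bp upstream, at taf-8. Regions of any rank lay in the windows of 50.2% of all protein-coding genes in replicate 2 and of 50.1% in replicate 3.

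Among the subunit genes, emb-27 had an IDR peak near the median and mat-1 one below it. The gene emb-27 (WBGene00001281, reverse strand, chrII:8159865-8162170) encodes the CDC16 subunit, which carries tetratricopeptide repeats. Its peak (chrII:8162355-8162638) had a signal of 29.1 in replicate 2 and 24.1 in replicate 3, which is 0.636 and 1.26 times the median and 0.946 ± 0.439 on average (SD, n = 2). The replicates fell on either side of the median. The ratio of replicate 2 to replicate 3 was 1.21, and 7.68% of the IDR peaks found in both had a lower one. The peak ranked 1306 in replicate 2 and 775 in replicate 3. The summit lay 327 bp upstream of emb-27 and 32 bp inside the 5' untranslated region of rrf-3, which encodes an RNA-dependent RNA polymerase of the small RNA pathways.

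The gene mat-1 (WBGene00003132, reverse strand, chrI:5123915-5127201) encodes the CDC27 subunit, which helps to receive the activators. Its peak (chrI:5127491-5127774) had a signal of 18.3 in replicate 2 and 11.1 in replicate 3, or 0.399 and 0.580 times the median (0.489 ± 0.127, SD, n = 2). Both replicates put it below the typical IDR peak. It ranked 1615 of 1886, next to the promoter peaks of tatn-1 (rank 1614) and of mei-1 and npp-2 (rank 1616). Its pooled signal of 29.9 was 1.22 times that of the weakest IDR region. The summit was 432 bp upstream of mat-1 and 195 bp upstream of the splicing factor gene prp-31, and the replicate summits were 3 bp apart.

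**Figure D2:**
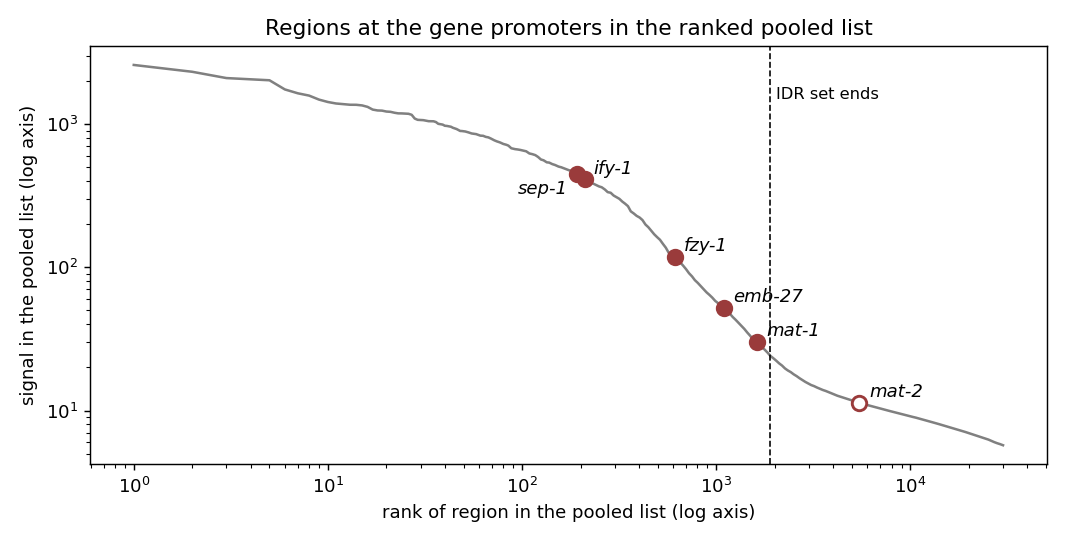
Signal of the regions of the pooled list against their rank (both axes log), with the strongest promoter region of each gene marked and the end of the IDR set at rank 1886 as a dashed line. The genes sep-1 and ify-1 sit at ranks 192 and 211, fzy-1 at 611, emb-27 at 1094 and mat-1 at 1615, while mat-2 (open) falls outside the IDR set and the other 3 genes have no region in the list.

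The remaining subunit genes had no IDR summit. The gene mat-2 (WBGene00003133, forward strand, chrII:11112719-11120805) encodes the large scaffold subunit. It had a pooled region with its summit 20 bp past the 5' end, a signal of 11.4 and rank 5458, or 0.465 times the weakest IDR region. Its signals were 5.84 in replicate 2 and 4.51 in replicate 3, and both lists held the region. The window of 51.0% of all protein-coding genes held some pooled region. The gene mat-3 (WBGene00003134, forward strand, chrIII:475454-482325), for the CDC23 subunit, had no pooled region. For mat-3, replicate 3 listed a region with a signal of 3.37 (rank 21182) and replicate 2 listed none. The gene emb-30 (WBGene00001284, reverse strand, chrIII:9435507-9441460), which encodes the APC4 subunit, likewise had no pooled region. Here too replicate 3 listed a region, with a signal of 3.01 (rank 25251), and replicate 2 none. Because read depth is unknown, the lists cannot show that EFL-1 was absent from these promoters.

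Many worm genes are transcribed together in operons, from a promoter ahead of the first gene. The deposited lists and the annotation used here give no operons, so a gene that ends on the same strand within 500 bp upstream was taken as a possible operon neighbour. Such a neighbour stood 96 bp ahead of emb-30 (pir-2) and 104 bp ahead of mat-3 (nemp-1), and none stood ahead of the other members. Of all protein-coding genes with such a neighbour, 8.59% had an IDR summit of their own. The pir-2 promoter held an IDR peak (chrIII:9443587-9443802), 58 bp from the pir-2 5' end and 2232 bp upstream of emb-30. A further gene on the same strand, F54C8.6, ended 181 bp ahead of pir-2, so pir-2 is not the first gene by this rule, and F54C8.6 had no IDR summit. The pir-2 peak ranked 325, with signals of 204 in replicate 2 and 93.4 in replicate 3. At nemp-1 there was no IDR summit, and the nearest one to mat-3 was 15834 bp downstream of its 5' end, beyond the end of the gene, at unc-45. For mat-2 the nearest IDR summit was 6191 bp upstream, at nasp-1. No pooled region had its summit in the bodies of emb-30, mat-3, ify-1, sep-1 or emb-27.

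The genes with a peak were also those with a close neighbour on the opposite strand. An opposite-strand 5' end lay within 1000 bp upstream of a 5' end of sep-1 (nefr-1, 556 bp), ify-1 (rpl-22, 437 bp), fzy-1 (F12A10.8, 569 bp), emb-27 (rrf-3, 295 bp) and mat-1 (prp-31, 627 bp). For fzy-1 this distance is from its second 5' end, and that F12A10.8 start lies inside the fzy-1 gene, past the first 5' end. The 5 head-to-head members counted below include fzy-1 by this 5' end. For mat-2, fzr-1 and mat-3 the nearest such start was 1512, 2512 and 3752 bp away, and for emb-30 no such start was found among the genes within 6000 bp. Of the members, 5 of 5 with a head-to-head neighbour and 0 of 4 without had an IDR summit, while the shares over all protein-coding genes were 31.5% and 6.29%. The related genes described below were not split so fully, with 9 of 14 and 2 of 8. For the 6 further subunit genes among them the counts were 0 of 2 and 1 of 4. A summit where the windows of both genes of a pair overlap counts for both. The sep-1 summit was 436 bp from sep-1 and 120 bp from nefr-1, and the summits of emb-27 and mat-1 were also closer to the neighbour. For ify-1 (180 bp, against 257 bp to rpl-22) and fzy-1 (137 bp, against 432 bp to F12A10.8) the member was closer. Which gene of a pair a peak belongs to cannot be told apart in these lists. Of all 1541 IDR peaks in a promoter window, 44.3% lay in windows of several protein-coding genes.

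**Figure D3:**
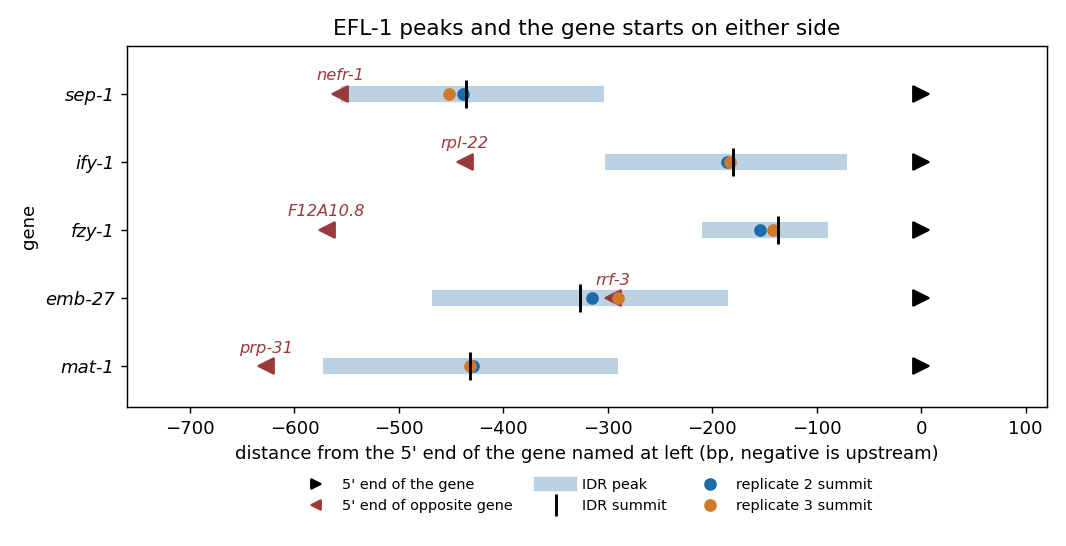
Position of the IDR peak (bar), its summit (black tick) and the replicate summits (points) at the 5 genes with a peak, in bp from the named gene's own 5' end, negative upstream. For fzy-1 this is the one of its 5' ends nearer to the summit. The black arrow is that 5' end and the red arrow the 5' end of the opposite gene. The summits of sep-1, emb-27 and mat-1 lie nearer to the red arrow and those of ify-1 and fzy-1 nearer to the black one.

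The 5 summits did not share a single motif of the kind first sought. Each was searched on both strands within 100 bp for TTTGAA and for the E2F consensus, whose forms are TTTCCCGC, TTTCGCGC, TTTGCCGC and TTTGGCGC. TTTGAA lay at the summits of emb-27 and sep-1, that is 2 of 5, beside 49.8% of all IDR summits and 50.1% of windows of the same length, 201 bp, just upstream of all protein-coding genes. At emb-27 a TTTGAA included the summit base itself, and another lay 41 bp away. At sep-1 the 2 matches lay 28 and 45 bp from the summit. The E2F consensus lay at the ify-1 peak alone among the 5, 85 bp from the summit and 88 to 95 bp upstream of the ify-1 5' end, beside 12.4% of IDR summits and 3.33% of upstream windows. Over the whole promoter window of 1501 bp, emb-30 and mat-3, which had no peak, each held an E2F consensus match, as did ify-1, beside 19.6% of all protein-coding genes.

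Motifs chosen after the sequences were seen gave matches at the other summits. TTCGAA, which reads the same on both strands, lay at fzy-1 across the summit base, at ify-1 21 bp from the summit and at mat-1 90 bp from it. It lay at 17.8% of IDR summits and 12.4% of upstream windows. TTTGAA or TTCGAA thus lay at 5 of 5 member summits, but also at 58.9% of IDR summits and 56.2% of upstream windows. A second E2F consensus, TT followed by 2 bases that are each C or G, then CGC and a last C or G, matched at fzy-1, 3 bp from the summit, beside 16.6% of IDR summits and 3.41% of upstream windows. Since these motifs were picked on these sequences, their matches are no evidence of a shared site. The share of G and C within 100 bp ranged from 31.3% at emb-27 to 50.2% at mat-1, around the IDR median of 39.8%.

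The spindle checkpoint genes all carried peaks (5 of 5), while further subunit genes of the complex (1 of 6) were near the 11.0% of all protein-coding genes. The genes mdf-1, mdf-2, san-1, bub-1 and bub-3 belong to the checkpoint that holds the complex inactive. All had an IDR summit, also when each summit was given to the nearest 5' end (7.51% of all protein-coding genes). The strongest was that of mdf-2 (Mad2), with signals of 253 in replicate 2 and 93.2 in replicate 3, or 5.19 ± 0.479 times the median (SD, n = 2). The summit lay 26 bp upstream of an mdf-2 5' end. The genes san-1, mdf-1 and bub-1 followed at 3.52 ± 0.128, 3.21 ± 0.333 and 1.35 ± 0.113 times the median, and bub-3 came last at 0.568 ± 0.103 (SD, n = 2 each). All but the mdf-1 peak were shared with another gene's promoter window. These genes were nduv-3 for mdf-2, ZC328.5 for san-1, lin-61 for bub-1 and Y54G9A.7 for bub-3.

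Of 6 further subunit genes, gfi-3 had an IDR summit and apc-2, apc-10, apc-11, apc-17 and such-1 had none. Of the subunit genes together, 3 of 11 were thus counted, beside 11.0% of all protein-coding genes. These 3 peaks, of emb-27, gfi-3 and mat-1, were all below the median of the IDR set on average. The gfi-3 peak (chrX:14480304-14480587) had a signal of 40.9 in replicate 2 and 6.28 in replicate 3, a wide spread on the scaled values (0.611 ± 0.401 times the median, SD, n = 2). The apc-11 gene came close, with a pooled signal of 22.4 and rank 2023, where the weakest IDR region had 24.4 and the strongest region outside 24.3. Ahead of apc-17, by 57 bp on the same strand, stood nasp-1, whose promoter held the IDR peak of rank 987. The same-strand neighbours of apc-10 (tag-314, 216 bp ahead), apc-11 (asb-1, 118 bp) and gfi-3 (M163.11, 315 bp) had no IDR summit.

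Some of the genes for targets of the complex and of separase had peaks, 2 of 4 cyclin and 3 of 7 cohesin genes beside 11.0% of all protein-coding genes. Of the B-type cyclin genes, cyb-1 and cyb-3 had an IDR summit and cyb-2.1 and cyb-2.2 had none. The cyb-1 peak, of rank 62, was stronger than any of the 9 genes' peaks, with signals of 610 in replicate 2 and 223 in replicate 3, or 12.5 ± 1.22 times the median (SD, n = 2). Its summit lay 493 bp upstream of cyb-1, in a window shared with orc-5. The cyb-3 peak had signals of 81.1 in replicate 2 and 36.1 in replicate 3, or 1.82 ± 0.0762 times the median (SD, n = 2), with its summit 582 bp upstream. Of the 7 cohesin genes found in the annotation, scc-1, coh-3 and smc-3 had an IDR summit, and rec-8, coh-1, coh-4 and scc-3 had none. The peak of scc-1, the mitotic subunit that separase cleaves, had signals of 198 in replicate 2 and 99.3 in replicate 3, or 4.75 ± 0.595 times the median (SD, n = 2). The scc-3 gene was just outside the IDR set, with a pooled signal of 23.6 and rank 1928. The peaks of cyb-3 and coh-3 were shared with the windows of T06E6.1 and bmk-1, and that of smc-3 with those of gly-9 and mib-1. Given to the nearest 5' end alone, no cyclin or cohesin summit stayed with its gene, beside 7.51% of all protein-coding genes counted by that rule. Each lay closer to a neighbour such as orc-5 for cyb-1 or rpn-5 for scc-1. From replicate 3 alone the counts were 4 of 5 checkpoint genes, 0 of 6 further subunits, 2 of 4 cyclins and 5 of 7 cohesin genes (10.4% of all protein-coding genes), while replicate 2 alone gave the counts of the IDR set.

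**Figure D4:**
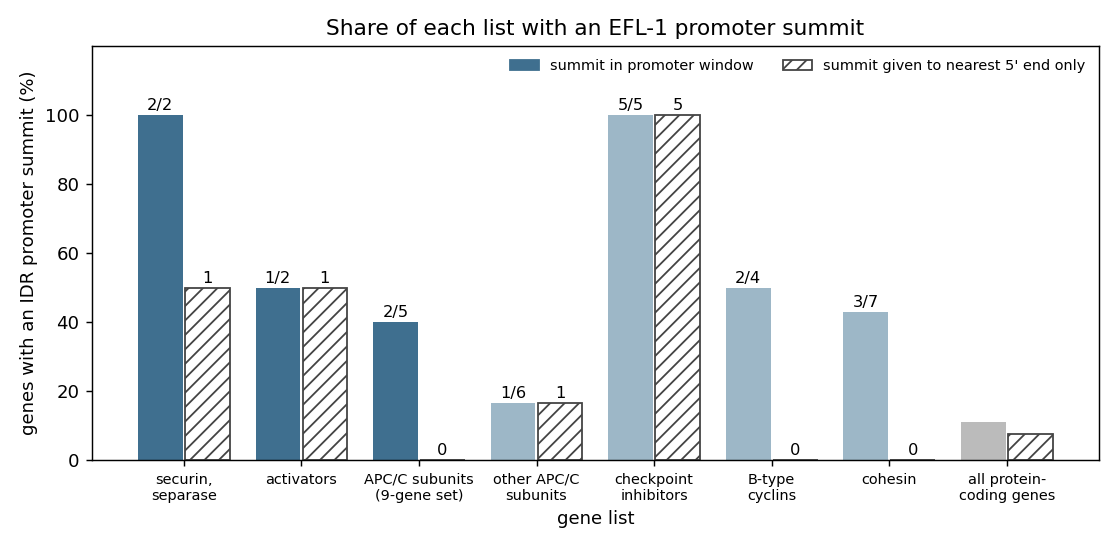
Percentage of the genes of each list with an IDR summit in the promoter window (filled bars, counts above) and with each summit given to the nearest 5' end only (hatched bars, counts above); the 3 dark bars are the 9 genes, the light bars related lists and the grey bar all protein-coding genes. Securin and separase (2 of 2) and the spindle checkpoint genes (5 of 5, labelled checkpoint inhibitors) lie at the top, the subunits at 2 of 5 and 1 of 6, and all protein-coding genes at 11.0%.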

How the data were processed

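The deposited files are narrowPeak lists on ce11: 30000 regions for each replicate, 30000 for the pooled replicates, and the 1886 IDR peaks, which per the deposited notes the authors derived from those lists. Each region has a signal value as deposited and a summit position. Caller, aligner and signal scale were not given in the sources used here. No read counts are held, so depth is unknown and no interval is given. Lists on ce10 were not used.

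Summits were assigned to genes of Ensembl release 115 (WBcel235, the assembly of ce11) with Python 3.11.15, pandas 2.3.3 and numpy 2.4.6. A replicate's value at an IDR peak is that of its strongest region meeting the peak by at least 1 bp. Assignment was checked on simulated summits. The 9 genes and the related lists were chosen with earlier results of these data known. Of the related names, smc-1, a core cohesin subunit also known as him-1, matched no annotated symbol and was not counted. The genes named are all members and related genes, those sharing their peaks, their upstream neighbours, the genes at the IDR summit nearest to a member without one, and those next in rank to the strongest and weakest member peak. Alternatives were other windows, peak sets, gene assignments, motif widths and each replicate alone.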

Additional observations from a re-analysis of the deposited data

How the results depend on the processing

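Of 31 recomputed counts and places in the order of signals, 23 stayed within 1.5 times the count or in the same place. These 23 include the count from all pooled regions, 6 of the 9 genes, where the share of all protein-coding genes was 51.0%. The count of 5 of the 9 genes was 2 in the tighter window (300 bp ahead, 100 bp past the start) and 2 with the nearest 5' end alone, fzy-1 and ify-1 in both cases, and 3 in the stronger 50% of IDR peaks. The share of all protein-coding genes, 11.0% by the main rule, was 7.17%, 7.51% and 6.48% in these settings. The first 2 changes follow from the summits of sep-1, emb-27 and mat-1 lying over 300 bp upstream and closer to a neighbour, the last from the ranks of emb-27 and mat-1. Of the 22 related genes, 11 had an IDR summit, 17 with all pooled regions and 6 with the nearest 5' end alone, where the shares of all protein-coding genes were 11.0%, 51.0% and 7.51%. TTTGAA lay at 4 summits within 250 bp and, counted with TTCGAA (added after the data were seen), at 5 within 100 bp. The E2F consensus lay at 0 within 50 bp, since its match is 85 bp away.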
